A study of Homo sapiens with 15 samples.

Results

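The genes described here are the replication-dependent histone genes, taken as every entry of the deposited count tables whose symbol begins with HIST1H, HIST2H, HIST3H or HIST4H and whose raw counts summed to 50 or more over the 15 libraries. Of 71 such entries among 20806, 50 met that minimum, and 8 had no count in any library. The entries just inside the minimum were HIST1H3I, HIST1H4K and an entry of HIST2H2AA3, with summed counts of 73, 65 and 56, and those just outside were HIST1H2BG, HIST1H1T and HIST1H2AD, with 38, 34 and 20. The 50 entries carry 47 symbols, because HIST2H2BF, HIST2H4A and HIST2H2AA3 each have 2 entries that passed.

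The libraries come from C4-2, an established castration-resistant human prostate cancer cell line, and were made from RNA selected with oligo-dT beads. The study compared 5 isogenic C4-2 lines that differ in ATGL, the triglyceride lipase encoded by PNPLA2: a Scramble control, an ATGL knockout (KO), and 3 addbacks made in that knockout. KO_WT received wild-type ATGL, KO_S47A the lipolysis-inactive S47A mutant and KO_S404A the S404A mutant. All 5 lines grew in 5 mM glucose with 5% dialyzed serum, and the labels number the 3 libraries of each line 1 to 3. A genotype is represented by a single line, of which the sources used here do not say whether it is a clone or a pool. The labels also do not say whether the libraries of a line are separate cultures; every p-value therefore refers to the spread between libraries alone, and that spread may be technical.

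Replication-dependent histone genes encode the bulk of the nucleosome core histones H2A, H2B, H3 and H4 and the linker histone H1, and they are transcribed in S phase, when new chromatin is assembled. Their mRNAs are the known exception among protein-coding mRNAs in ending not in a poly(A) tail but in a conserved stem-loop, which is bound by the stem-loop binding protein SLBP and cut by a complex guided by U7 snRNA. Some of these genes also make longer, polyadenylated mRNAs from a signal downstream of the stem-loop, a form known from differentiated and non-dividing cells. A library selected on poly(A) therefore samples the tailed part of these mRNAs, together with whatever untailed RNA passes the selection, and does not measure the whole histone mRNA pool.

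The stem-loop is the element that sets this family apart in RNA selected by oligo-dT. It is shown here for some of the genes whose annotated transcripts contain it. Transcripts were taken from GENCODE v29 (GRCh38), which held all 47 symbols, and were searched on the transcript strand for a pattern of GG, any 2 bases, CTT, any base, T, any base, AG, any 2 bases and CC. The 16 bases of the match are in capitals and 5 bases are shown on either side.
HIST1H2AC: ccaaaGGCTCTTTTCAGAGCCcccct
HIST3H2A: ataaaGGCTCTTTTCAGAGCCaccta
HIST2H2BE: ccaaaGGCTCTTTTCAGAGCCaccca
HIST1H2BC: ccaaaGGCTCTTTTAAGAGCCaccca
HIST1H3E: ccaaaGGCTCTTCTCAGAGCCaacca
HIST1H3H: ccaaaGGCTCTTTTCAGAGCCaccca
HIST1H4H: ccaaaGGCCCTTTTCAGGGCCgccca
HIST1H2AG: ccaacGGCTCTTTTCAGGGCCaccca
The 22 symbols with a match used 6 forms of these 16 bases. The form in HIST2H2BE was shared by 10 symbols of H2A, H2B and H3, the form in HIST1H4H by 5 symbols, all of H4, and the form in HIST1H2BC by 3 symbols, all of H2B. The form in HIST1H3E and the form in HIST1H2AG each occurred in 1 symbol. The remaining 25 symbols had no match in their annotated transcripts, and many of those models are short, as for HIST1H2BK, whose annotated transcript has 381 bases although the deposited values imply a counted length of 820 bases. No match therefore says only that these letters are not in the annotated transcript.

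For 12 of the 50 entries (10 symbols), an annotated transcript ran at least 300 bases past the stem-loop and held AATAAA or ATTAAA in its last 50 bases. The HIST2H2BE transcript continued for 1729 bases after the stem-loop, that of HIST1H3E for 1862 and that of HIST3H2A for 390. Among the leading genes HIST1H2AC, HIST3H2A, HIST2H2BE, HIST1H4H, HIST1H3H and HIST1H3E belonged to this group.

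Promoters are shown for 4 genes whose levels moved in opposite directions by replicate number, HIST2H2BE down and HIST1H2BJ, HIST1H2BK and HIST1H1C up, as described further on. Each is the 250 bases before the start in RefSeq on GRCh38.p14, printed 5′ to 3′ on the gene's strand. The capitals mark the octamer ATTTGCAT, which POU2F1 (OCT1) binds, the CCAAT box and TATAAA, each searched on both strands, so that adjoining capitals can be overlapping matches to both strands.
HIST2H2BE, chr1:149886683-149886932, minus strand: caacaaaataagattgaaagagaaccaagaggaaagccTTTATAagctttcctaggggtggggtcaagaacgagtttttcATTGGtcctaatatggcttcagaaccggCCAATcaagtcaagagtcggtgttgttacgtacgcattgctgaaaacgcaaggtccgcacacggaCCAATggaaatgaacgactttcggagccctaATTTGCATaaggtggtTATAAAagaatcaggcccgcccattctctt
HIST1H2BJ, chr6:27132796-27133045, minus strand: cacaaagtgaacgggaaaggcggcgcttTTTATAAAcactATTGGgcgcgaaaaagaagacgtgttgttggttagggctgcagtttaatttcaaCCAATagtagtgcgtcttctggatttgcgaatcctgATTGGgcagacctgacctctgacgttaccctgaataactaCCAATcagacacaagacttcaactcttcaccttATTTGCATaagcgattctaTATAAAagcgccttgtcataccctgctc
HIST1H2BK, chr6:27146859-27147108, minus strand: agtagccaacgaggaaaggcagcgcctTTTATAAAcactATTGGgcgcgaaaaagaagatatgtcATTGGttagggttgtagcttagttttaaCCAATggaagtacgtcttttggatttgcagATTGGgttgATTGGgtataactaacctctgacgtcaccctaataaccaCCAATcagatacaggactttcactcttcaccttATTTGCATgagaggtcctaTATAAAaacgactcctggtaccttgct
HIST1H1C, chr6:26056471-26056720, minus strand: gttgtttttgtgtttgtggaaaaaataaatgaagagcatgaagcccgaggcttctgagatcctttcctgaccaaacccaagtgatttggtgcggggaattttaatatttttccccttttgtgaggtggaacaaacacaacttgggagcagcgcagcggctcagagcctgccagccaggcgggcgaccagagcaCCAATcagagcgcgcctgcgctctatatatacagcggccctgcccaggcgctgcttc
The 3 H2B promoters share the same arrangement. The first base of the octamer lies 46 or 47 bases before the start, and that of the TATAAA after it 27 to 30 bases before. RefSeq held a promoter for 41 of the 47 symbols. The octamer was in 18 of them (43.9%) against 1.63% of the 35116 promoters in the table, the CCAAT box in 34 (82.9%) against 32% and TATAAA in 27 (65.9%) against 10.7%. By class, the octamer was in 9 of 12 H2A promoters, 8 of 12 H2B, 1 of 6 H3, 0 of 3 H1 and 0 of 8 H4. By the calls described further on, the octamer was in 4 of 7 promoters of genes that rose in the libraries numbered 3, in 1 of 6 of genes that fell, that of HIST2H2BE, and in 13 of 26 of genes tested and not called. TATAAA was in 4 of 7, 2 of 6 and 19 of 26 of these. These promoters are not independent. In the 8 head-to-head pairs described further on, the starts lie 194 to 248 bases apart, within the 250 bases searched. A match between the 2 starts is then counted for both genes. The 1 H3 promoter with an octamer is that of HIST1H3D, which faces HIST1H2BF. A match describes the letters and does not show binding.

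Histone reads were a small part of every library. The 50 genes together took 294.7 to 426.9 CPM (counts scaled to the gene counts of a library, median 374.7), 13946 to 24017 reads per library. By summed count over all libraries, H2B made up 42.5% of the histone reads, H2A 28.0%, H1 19.98%, H3 5.08% and H4 4.38%, although H4 had 11 of the 50 entries and H1 only 3. HIST1H2BK, HIST1H1C and HIST1H2AC alone held 59.5%, and the 12 highest entries 89.6%. Entries of the HIST1 cluster gave 82.1% of the reads, those of HIST2 9.04%, HIST3 8.59% and HIST4 0.250%. Reads that mapped to more than 1 place were 2.86% to 3.41% of all reads and were kept out of the gene counts, so genes with near-identical copies, such as the entries of HIST2H2AA3 and HIST2H4A and many coding sequences of H3 and H4, are uncertain, by an amount that was not measured gene by gene.

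On the scale of CPM per kilobase of counted length (with CPM scaled by TMM, edgeR's trimmed-mean factors), the mean level over the 15 libraries was 112 for HIST1H2BK, 99.2 for HIST1H1C, the main linker histone gene here, 63.2 for HIST3H2A, 33.3 for HIST1H2AC and 18.1 for HIST1H3H. The highest H4 gene, HIST1H4H, reached 9.11. The other entries lay below HIST1H3H, so 2 H2A genes, 1 H2B gene, 1 H1 gene and 1 H3 gene led the family per length. HIST2H2BE, 1 of the 5 highest by counts, was at 11.6 per kilobase, its counted length being 2221 bases.

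Levels are given in the order of libraries 1, 2 and 3 of each line, in TMM-scaled CPM. The linker histone HIST1H1C had 67.6, 71.0 and 103 CPM (Scramble), 68.9, 73.9 and 94.1 (KO), 59.8, 61.6 and 83.5 (KO_WT), 57.1, 51.2 and 83.8 (KO_S47A) and 57.4, 59.1 and 95.2 (KO_S404A). In every line the library numbered 3 was highest, and the 5 libraries numbered 3 did not overlap the other 10. HIST1H1B, an H1 gene of dividing cells, was far lower, with 0.166 to 0.750 CPM in the libraries numbered 1 and 2 and 0.787 to 1.49 in those numbered 3.

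Among H2A genes, HIST1H2AC had 52.4, 51.8 and 61.9 CPM (Scramble), 32.9, 44.4 and 66.4 (KO), 65.7, 51.9 and 58.6 (KO_WT), 71.4, 69.8 and 56.0 (KO_S47A) and 62.3, 33.9 and 69.1 (KO_S404A). The order of its 3 libraries differed from line to line. HIST3H2A had 38.8, 30.1 and 20.5 CPM (Scramble), 22.0, 28.7 and 19.0 (KO), 44.7, 39.1 and 17.9 (KO_WT), 50.3, 40.6 and 29.8 (KO_S47A) and 42.8, 21.6 and 22.9 (KO_S404A). Its library numbered 3 was lowest in 4 of 5 lines, the exception being KO_S404A, where library 2 was lower. HIST1H2AM, by contrast, held between 3.73 and 5.70 CPM in all 15 libraries.

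Among H2B genes, HIST1H2BK had 91.4, 83.5 and 131 CPM (Scramble), 71.6, 74.6 and 115 (KO), 92.7, 89.2 and 106 (KO_WT), 90.2, 87.3 and 90.1 (KO_S47A) and 84.6, 75.5 and 99.98 (KO_S404A). HIST2H2BE had 33.3, 33.5 and 18.3 CPM (Scramble), 18.0, 15.7 and 14.4 (KO), 35.7, 33.3 and 14.9 (KO_WT), 38.1, 36.6 and 16.8 (KO_S47A) and 35.2, 28.5 and 13.5 (KO_S404A). The libraries of HIST2H2BE thus fall at 2 levels, with the 3 KO libraries and all libraries numbered 3 between 13.5 and 18.3 CPM and the other 8 between 28.5 and 38.1. HIST1H2BJ had 5.61, 5.88 and 16.3 CPM (Scramble), 4.44, 4.97 and 9.31 (KO), 4.67, 4.21 and 8.64 (KO_WT), 3.39, 2.18 and 7.42 (KO_S47A) and 2.51, 2.99 and 11.4 (KO_S404A). It was highest in library 3 of every line, with no overlap with the other libraries.

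HIST1H2BD and HIST1H2BC, the other H2B genes among the 12 highest, ranged from 7.94 to 13.4 and from 6.81 to 13.3 CPM. The H3 gene HIST1H3E had 6.91, 4.93 and 4.20 CPM (Scramble), 4.15, 4.00 and 2.75 (KO), 9.08, 7.92 and 3.72 (KO_WT), 9.06, 9.34 and 4.12 (KO_S47A) and 8.26, 4.05 and 2.99 (KO_S404A). The H4 gene HIST1H4H had 9.71, 9.05 and 8.68 CPM (Scramble), 6.56, 6.56 and 6.56 (KO), 12.9, 9.97 and 6.24 (KO_WT), 14.9, 14.3 and 7.42 (KO_S47A) and 14.2, 7.52 and 6.81 (KO_S404A). Both were high in libraries 1 and 2 of KO_WT and KO_S47A and in library 1 of KO_S404A, and HIST1H3E was lowest in the library numbered 3 of each line. HIST1H3H, the highest H3 gene, ranged from 6.38 CPM to 13.8 CPM, and its top library was KO_WT 1.

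**Figure D1:**
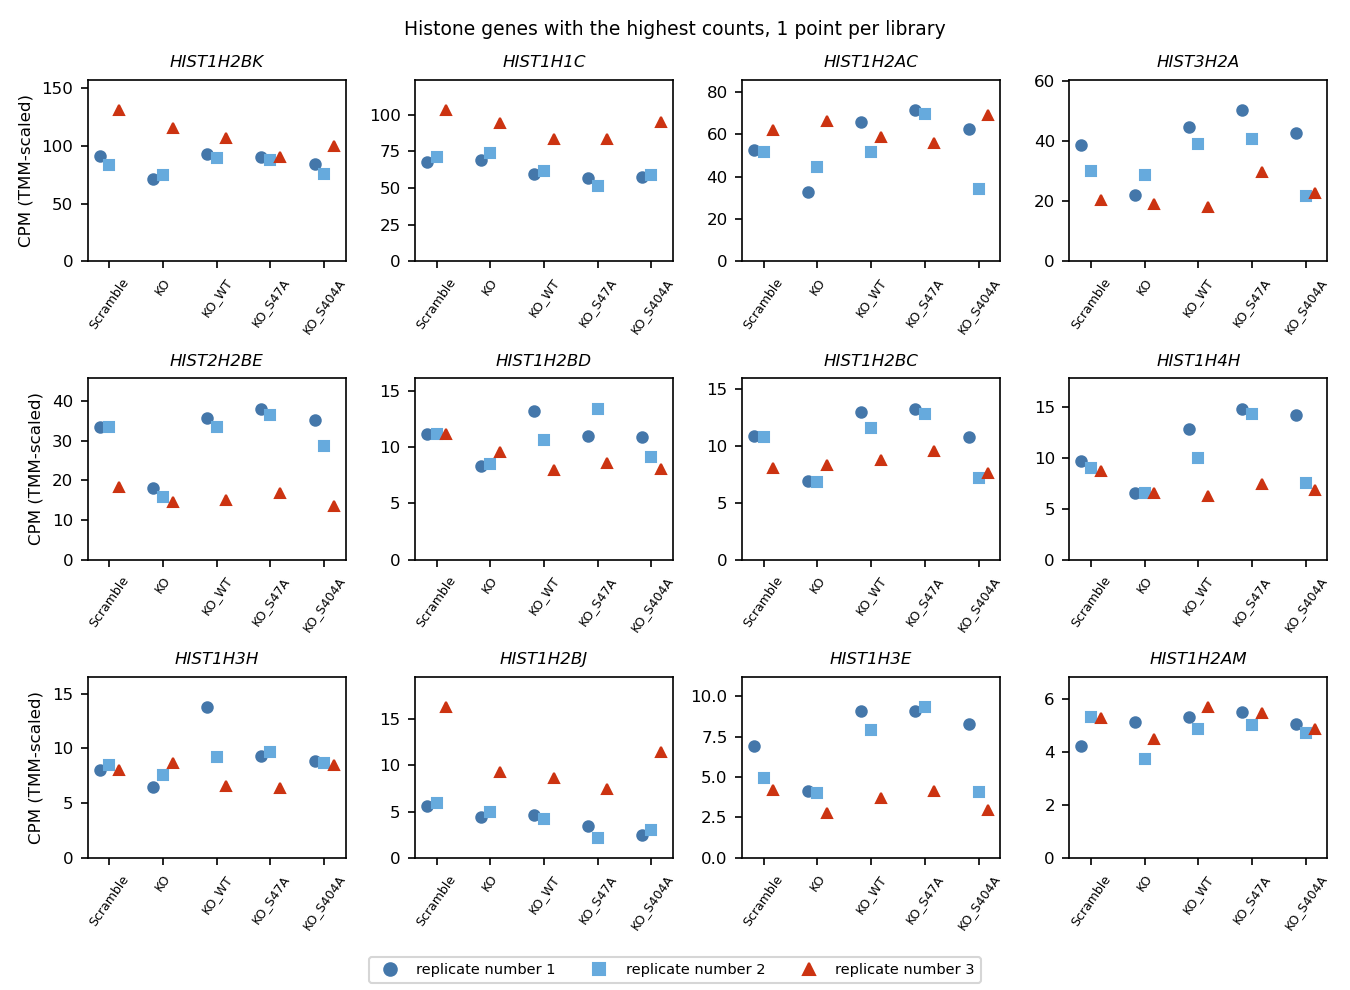
Levels (TMM-scaled CPM, vertical axes from 0) of the 12 histone genes with the highest summed counts in each of the 15 libraries, by line along the horizontal axis and by replicate number (blue circles 1, light blue squares 2, red triangles 3). The red triangles of HIST1H1C and HIST1H2BJ lie above all other points, while those of HIST2H2BE lie with the KO libraries at 13.5 to 18.3 CPM.

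The libraries numbered 3 were compared with those numbered 1 and 2 across all lines, in a fit with terms for line and number (edgeR's quasi-likelihood test, Benjamini-Hochberg adjustment over all 14246 genes tested). Of the 50 histone genes, 46 passed the filter on low counts and were tested. At an adjusted p under 0.05, 16 of 46 histone genes (34.8%) differed, against 45.3% of all genes tested. In the libraries numbered 3, 10 histone genes were higher, against a background of 22.2%, and 6 were lower, against a background of 23.1%. The share called was below the background. The log2 differences of the histone genes ran from -1.29 to 1.61, with a median of 0.02 beside -0.02 for all genes. The lowest was that of HIST2H2BA, which was not called and which GENCODE annotates as a transcribed unprocessed pseudogene. At an unadjusted p under 0.05 the background was 52.3%, and DESeq2 called 20 histone genes where it called 47.7% of all genes.

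The genes that rose in the libraries numbered 3 came from all 5 classes and all lay in the HIST1 cluster. That cluster holds 36 of the 50 entries, and whether the rises were concentrated in it was not tested. In the H1 class, HIST1H1C rose by a log2 difference of 0.56 (SE 0.05, adjusted p = 2.24e-06), and HIST1H1B by 1.61 (SE 0.30, adjusted p = 0.000499), both in 5 of 5 lines. HIST1H1E was not called, at 0.37 (SE 0.19). In H2B, HIST1H2BJ rose by 1.40 (SE 0.14, adjusted p = 2.52e-06, 5 of 5 lines), and HIST1H2BK by 0.37 (SE 0.07, adjusted p = 0.000935), with the library numbered 3 highest in 4 of 5 lines. In H4, HIST1H4C rose by 1.09 (SE 0.17, adjusted p = 0.000149, 5 of 5 lines) and HIST1H4A by 1.15 (SE 0.42, adjusted p = 0.0355, 5 of 5 lines).

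Low-count H2A and H3 genes made up the rest of the rise. HIST1H2AH, between 0.0371 and 0.308 CPM in the libraries numbered 1 and 2 and between 0.234 and 0.605 in those numbered 3, rose by 1.47 (SE 0.38, adjusted p = 0.00542). HIST1H2AL, HIST1H2AJ and HIST1H3A rose by 0.96, 0.67 and 0.78 (adjusted p = 0.0388, 0.0283 and 0.0327). These last 3 genes and HIST1H4A each lost their call in 11 or more of the 27 alternative settings, and HIST1H4H lost its call in 4, whereas the other 11 called genes were called in all 27.

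The genes that fell came from H2A, H2B, H3 and H4, and included HIST2H2BE and HIST3H2A, 2 of the 5 highest by counts. HIST2H2BE fell by 0.93 on the log2 scale (SE 0.12, adjusted p = 1.78e-05), with the library numbered 3 lowest in 5 of 5 lines. HIST1H3E fell by 0.88 (SE 0.14, adjusted p = 0.000175) and HIST1H2BN by 0.70 (SE 0.13, adjusted p = 0.000546), each lowest in library 3 of 5 of 5 lines. HIST1H2AK fell by 1.15 (SE 0.20, adjusted p = 0.000325), HIST3H2A by 0.68 (SE 0.13, adjusted p = 0.00078) and HIST1H4H by 0.51 (SE 0.14, adjusted p = 0.00944), each lowest in library 3 of 4 of 5 lines. A fall in counts of a bulk library cannot tell apart fewer cells that express a gene from less RNA per cell.

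**Figure D2:**
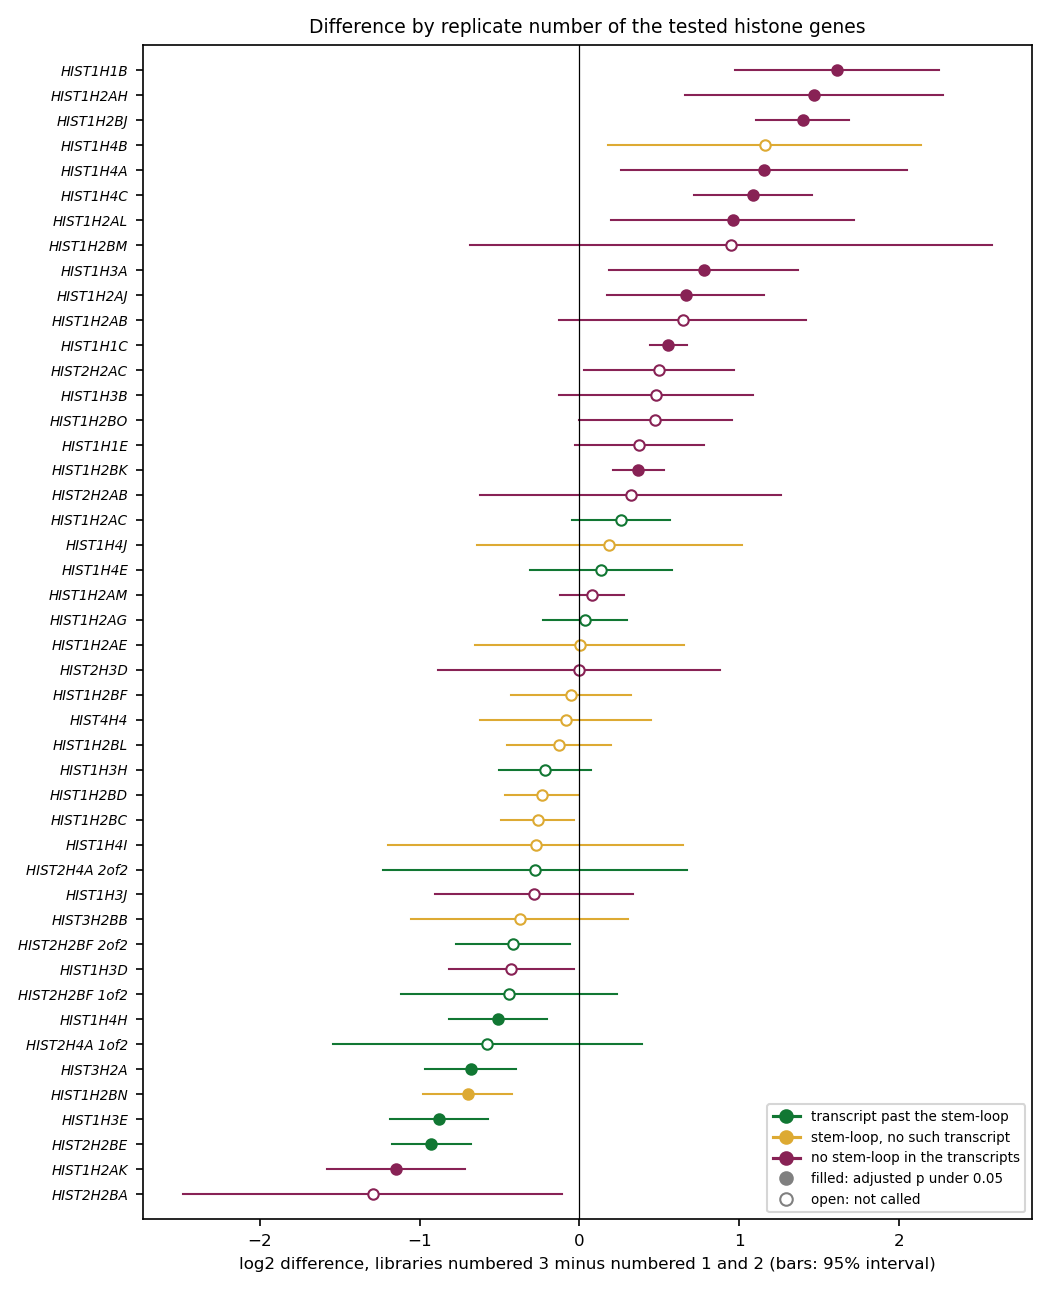
Log2 difference between the libraries numbered 3 and those numbered 1 and 2 (points, with 95% interval as bars) for the 46 tested histone genes, ordered by size and coloured by what their annotated transcripts hold. Filled points have an adjusted p under 0.05; the 10 filled points to the right are all of genes with no stem-loop in their annotated transcripts, and 4 of the 6 to the left are of genes with a transcript past the stem-loop.

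The genes were also grouped by their annotated transcripts. Of the 12 entries with a transcript that runs past the stem-loop to a poly(A) signal, all tested, 0 were higher and 4 lower (HIST2H2BE, HIST1H3E, HIST3H2A and HIST1H4H), with a median log2 difference of -0.43 and a range of -0.93 to 0.26. Of 11 tested entries with a stem-loop but no such transcript, 0 were higher and 1 was lower, HIST1H2BN, with a median of -0.13. Of 23 tested entries with no stem-loop in their transcripts, 10 were higher and 1 lower, HIST1H2AK, with a median of 0.50. The groups are a description, made after the differences were known, and are given with no test. They differ also in counted length, with medians of 1633, 452 and 469 bases, and HIST1H2BJ, which rose, has a counted length of 2098 bases. In the first group, HIST3H2A, HIST1H3H, HIST1H2AG and HIST1H4E have counted lengths of 495, 472, 497 and 376 bases. Their annotated transcripts have 895, 1237, 2250 and 1487 bases. The counts of these 4 entries may therefore leave out the part past the stem-loop. For HIST2H2BE the 2 lengths are close, 2221 and 2194 bases. Outside the first group, transcripts of HIST1H2BJ, HIST1H2BN, HIST1H2BC and HIST1H2BD, among others, also held AATAAA or ATTAAA in their last 50 bases. Many annotated transcripts with no stem-loop are short, as described above, so a stem-loop past their end would not be seen.

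Removing the libraries KO 1 and KO_S404A 2 moved the counts of rises and falls. These are the libraries with the longest mean counted gene length weighted by counts, 3827 and 3886 bases against 3543 to 3727 in the other 13, and with 71.3 and 71.2 CPM of H2A genes, the lowest of all. Without them 18 histone genes were called, 7 higher and 11 lower, where 50.7% of all genes were called. HIST1H2AL, HIST1H2AJ and HIST1H4A lost their calls, and HIST1H2BC (-0.34), HIST1H2BD (-0.28), HIST1H3D (-0.52), HIST2H2BA (-1.48) and an entry of HIST2H2BF (-0.49) were called lower. Without the library KO 3 the split was 8 higher and 12 lower, where 43.7% of all genes were called.

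Many H2A and H2B genes, and some H3 genes, stand head to head with another histone gene, with both starts within 1 short region, so that a pair shares the promoter region shown above for HIST2H2BE and HIST1H2BJ. Pairs were sought only among the 41 symbols with a RefSeq promoter. HIST1H2AH, HIST1H4A and HIST1H4C, which rose, had none and could not be placed in a pair. In RefSeq 8 such pairs had both genes tested, with starts 194 to 248 bases apart. Of these, 7 joined an H2A with an H2B gene and 1 an H3 with an H2B gene. For each pair the log2 ratio of the 2 genes (CPM plus 0.1) in library 3 was compared with the mean of libraries 1 and 2 within each line, by an exact two-sided permutation test over the 243 ways to choose 1 library per line. The test was added after the single-gene results were known, and the smallest p it can give is 0.0041, or 0.011 when 3 of 8 pairs reach it and p is adjusted over the 8 pairs.

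The ratio passed in 4 of the 8 pairs. The share of other gene pairs that would pass was not computed, and 45.3% of all single genes tested were called by number. The ratio of HIST2H2BE to HIST2H2AC fell by 1.41 (SD 0.90 over 5 lines, 5 of 5 lines, adjusted exact p = 0.011). HIST2H2AC, an H2A gene whose start lies 236 bases from that of HIST2H2BE, had a log2 difference of 0.50 (SE 0.22, adjusted p = 0.079 in edgeR) while HIST2H2BE fell. The ratio of HIST1H2BC to HIST1H2AC fell by 0.52 (SD 0.26, 5 of 5 lines, adjusted exact p = 0.011). The ratio of HIST1H2BJ to HIST1H2AG rose by 1.34 (SD 0.50, 5 of 5 lines, adjusted exact p = 0.011), with HIST1H2AG itself at 0.04 (SE 0.12).

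The ratio of HIST1H3D to HIST1H2BF fell by 0.35 in 4 of 5 lines (adjusted exact p = 0.0247). The other 4 pairs did not pass: HIST1H2AK to HIST1H2BN gave -0.40 (adjusted exact p = 0.0724), HIST1H2AM to HIST1H2BO -0.36 (0.143), HIST3H2A to HIST3H2BB -0.35 (0.343) and HIST1H2AJ to HIST1H2BM 0.13 (0.831). The sources used here do not state whether the counting used strand, and reads from overlapping ends of 2 opposed genes cannot then be told apart.

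**Figure D3:**
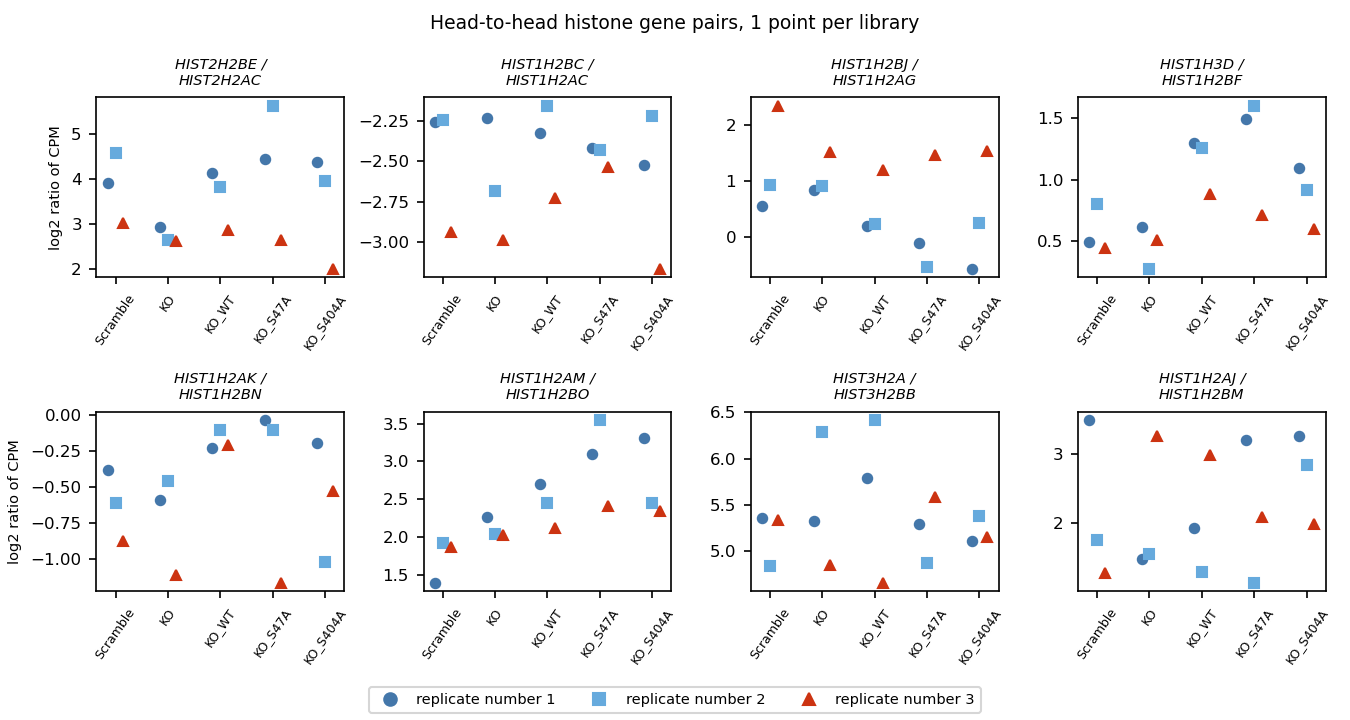
Log2 ratio of CPM (plus 0.1) between the 2 genes of each of the 8 head-to-head pairs, 1 point per library, by line and by replicate number (blue circles 1, light blue squares 2, red triangles 3). For HIST1H2BJ over HIST1H2AG the red triangle is the top point of every line, and for HIST2H2BE over HIST2H2AC and HIST1H2BC over HIST1H2AC it is the bottom point of every line.

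Other genes tied to the cell cycle were counted in the same comparison. Of 50 DNA replication genes 49 were higher in the libraries numbered 3 (median 0.88), led by CLSPN at 1.52, a checkpoint adaptor at replication forks, and the S phase cyclin gene CCNE2 at 1.48. All 24 mitosis genes tested were higher (median 0.93), led by the kinase CDK1 at 1.16 and BIRC5 at 1.1. The background of genes called higher was 22.2%. Of 15 genes of cell cycle exit 5 were higher and 9 lower (median -0.33). Among them the CDK inhibitors CDKN2B and CDKN1C fell by 1.24 and 0.98 on the log2 scale, while GAS1 rose by 1.33 and the CDK inhibitor CDKN2C by 0.89. These lists were chosen with the direction of the proliferation genes in these libraries known, so they are no independent support.

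Of the 24 factors that transcribe, process or degrade histone mRNA, 13 were higher and 1 lower (median 0.19). SLBP, which binds the stem-loop, had 48.6 to 85.0 CPM in the libraries numbered 1 and 2 and 106 to 120 in those numbered 3, a rise of 0.81 (SE 0.08, adjusted p = 1.77e-06). ERI1, the exonuclease that trims the histone 3′ end, rose by 0.52 (SE 0.07, adjusted p = 2.43e-05), and HINFP, a transcription factor of H4 genes, fell by 0.35 (SE 0.07, adjusted p = 0.000999). Of 19 histone chaperones 14 were higher and 1 lower (median 0.28): the H3-H4 chaperone ASF1B was at 1.24, HJURP, which deposits CENPA, at 1.11 and NAP1L1, a chaperone of H2A and H2B, at -0.34.

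The replication-independent histone genes, whose mRNAs carry poly(A) tails, showed 7 of 11 tested genes higher and 1 lower (median 0.21). H2AFX, an H2A variant whose mRNA is made in both a stem-loop and a tailed form, had 60.0 to 199 CPM in the libraries numbered 1 and 2 and 185 to 264 in those numbered 3, a rise of 1.08 (SE 0.18, adjusted p = 0.000244). CENPA, the centromeric H3, rose by 0.73 (SE 0.07), H2AFZ by 0.57 (SE 0.07), H2AFV by 0.31 (SE 0.05), H1FX by 0.29 (SE 0.08), H2AFY by 0.21 (SE 0.05) and H2AFJ by 0.16 (SE 0.06), with adjusted p from 2.10e-06 to 0.0481. H1F0, the linker histone of resting cells, fell by 0.20 (SE 0.06, adjusted p = 0.00807). H3F3A, H3F3B and H2AFY2 had log2 differences of 0.06, 0.04 and -0.03 and were not called, and H3F3C did not pass the filter.

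Carry-over of RNA without a tail was looked at with 15 non-polyadenylated RNAs, of which 8 were tested. Of the 15, 11 stayed under 1 CPM in every library, so their sum rests on few RNAs and is a coarse measure. The summed level of the 15 was 14.8 to 21.2 CPM in the libraries numbered 3. It was 10.5 to 17.1 in those numbered 1 and 10.6 to 17.1 in those numbered 2, so the ranges overlap. Only SCARNA12 among the 8 passed, at 0.48 (SE 0.19, adjusted p = 0.0468), and RMRP was at 0.38 (SE 0.15, adjusted p = 0.0577). The median of the 8 was 0.36, their range -0.55 to 0.48, and their part in the histone differences was not tested.

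**Figure D4:**
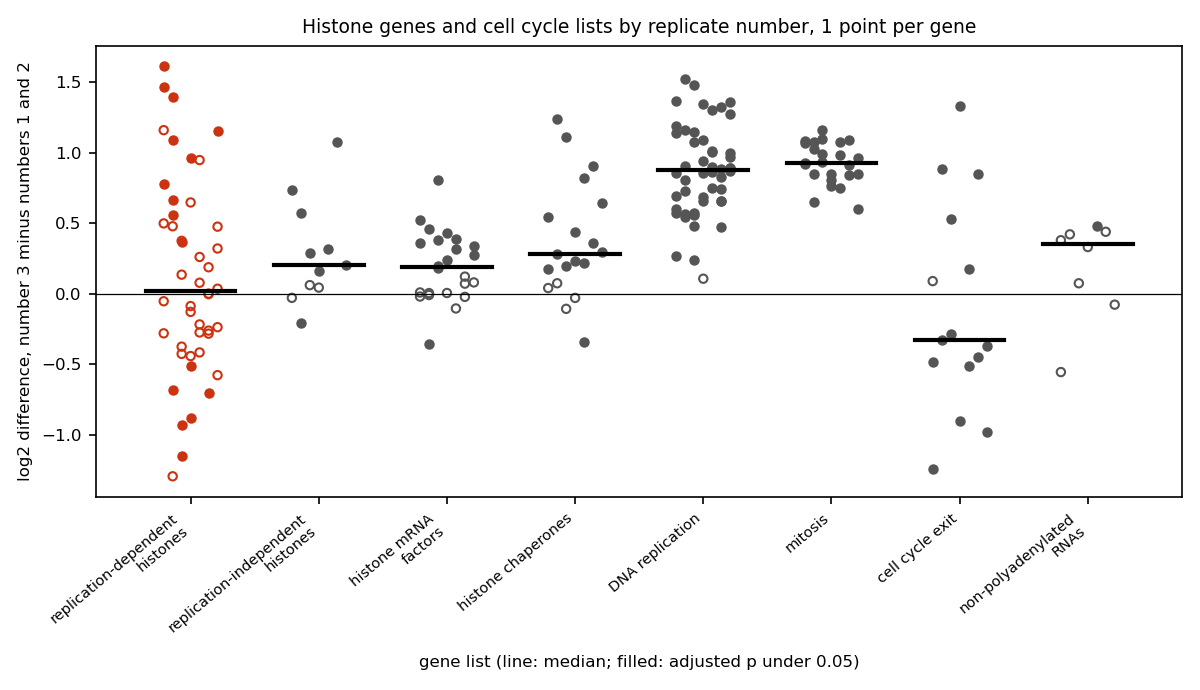
Log2 differences between the libraries numbered 3 and those numbered 1 and 2 for the 46 tested histone genes (red) and for the fixed gene lists (grey), 1 point per gene, filled at an adjusted p under 0.05, with the median as a black line. DNA replication and mitosis genes lie above 0 with medians of 0.88 and 0.93, while the replication-dependent histone genes spread from -1.29 to 1.61 around a median of 0.02.

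The difference between the number 3 library and the others did not differ detectably between lines: a test of the interaction of line and number called 0 of 14246 genes and 0 of 46 histone genes, 4 of these at an unadjusted p under 0.05 (HIST2H2BE, HIST1H2BK, HIST1H3H and HIST1H2BJ). Libraries numbered 2 against those numbered 1 gave 0 of 46 histone genes and 0% of all genes in edgeR, and likewise 0 and 0% in DESeq2. At an unadjusted p under 0.05 were 2 histone genes, beside 2.8% of all genes. Their median log2 difference was -0.17 for the histone genes, beside 0.00 for all genes.

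Between lines, no histone gene passed in the main fit, which has 1 mean per line. Across the 5 lines 0 of 46 were called (background 2.37%), with 4 at an unadjusted p under 0.05. DESeq2 called 1, an entry of HIST2H2BF, beside 7.55% of all genes. In KO minus Scramble, the loss of ATGL, 0 of 46 were called (background 2.69%), 0 were at an unadjusted p under 0.05 (background 12.8%), and the median log2 difference was -0.20 beside 0.02 for all genes. In KO_WT minus KO, the return of the enzyme, 0 were called (background 0.0281%), and 5 were at an unadjusted p under 0.05 (background 7.58%), with a median of 0.15. In KO_S404A minus KO, 0 were called (background 0.0211%), and 1 was at an unadjusted p under 0.05 (background 4.08%), with a median of 0.10.

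In KO_WT minus KO_S47A, which contrasts active and lipolysis-inactive enzyme, 0 were called (background 0%), and 2 were at an unadjusted p under 0.05 (background 2.17%), with a median of -0.10. In KO_S404A minus KO_WT, 0 were called (background 0%), and 0 at an unadjusted p under 0.05 (background 8.7%), with a median of -0.02. In KO_WT minus Scramble, 0 were called (background 3.47%), and 1 was at an unadjusted p under 0.05 (background 14.8%), with a median of -0.03. DESeq2 called 1 histone gene in that contrast, HIST1H2BL, beside 6.09% of all genes. It called 0 histone genes in KO minus Scramble (4.84% of all genes), KO_WT minus KO (0.0562%), KO_S47A minus KO (0.232%), KO_S404A minus KO (0.0562%), KO_WT minus KO_S47A (0.0281%) and KO_S404A minus KO_WT (0%). The 95% interval of a histone gene's log2 difference had a median halfwidth of 0.95 in KO minus Scramble. For a gene at that median, a smaller difference would not reach an unadjusted p under 0.05. A call needs an adjusted p under 0.05, and so a larger difference.

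KO_S47A minus KO had the most histone genes near the threshold. In the fit with 1 mean per line, 0 of 46 were called (background 0.00702%), and 12 were at an unadjusted p under 0.05, where 16.8% of all genes were. The median log2 difference was 0.18 beside 0.01 for all genes. With the replicate number as a block, 11 of 46 (23.9%) were called against 22.1% of all genes. Of these, 10 were higher in KO_S47A (background 10.6%) and 1 lower (background 11.5%). The share called was near the background, and only the split by direction departed from it, without a test of that split. The pairing of numbers 1 and 2 in this block was not borne out by the correlations described under processing. KO 1 correlated at 0.2058 with KO_S47A 1 and 0.2283 with KO_S47A 2. KO 2 correlated at 0.1502 with KO_S47A 2 and 0.1693 with KO_S47A 1. The libraries numbered 3 correlated at 0.4291.

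The 10 genes called higher with the block were H2A, H2B, H3 and H4 genes of 3 clusters. HIST2H2BE was higher by 0.82 (SE 0.17, adjusted p = 0.00608 with the block, 0.287 without), with same-numbered ratios of 2.11, 2.33 and 1.16. HIST1H3E was higher by 0.99 (SE 0.21, adjusted p = 0.00633, 0.277 without) with ratios of 2.18, 2.34 and 1.5, and HIST1H4H by 0.83 (SE 0.21, adjusted p = 0.0135, 0.274 without) with ratios of 2.27, 2.18 and 1.13. The remaining genes were HIST1H2AK at 1.16, HIST1H3D at 0.93, HIST1H2BN at 0.78, HIST3H2A at 0.75, HIST1H2BC at 0.67 and the 2 entries of HIST2H2BF at 1.62 and 1.1. All 10 were higher in KO_S47A in 3 of 3 same-numbered pairs. The blocked test on these same libraries had picked them, so this is no separate support. In 9 of the 10 genes the third pair had the smallest ratio, as low as 1.02 for HIST1H3D, HIST3H2A being the exception.

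HIST1H1C was the gene called lower with the block, by 0.32 on the log2 scale (SE 0.08, adjusted p = 0.0138, 0.475 without). It was lower in 3 of 3 pairs, which are likewise the libraries of the test. In the same blocked comparison 45 of 50 DNA replication genes and 23 of 24 mitosis genes were lower in KO_S47A, with medians of -0.61 and -0.78. SLBP was lower by 0.54 (SE 0.11, adjusted p = 0.00692) and H2AFX by 1.12 (SE 0.28, adjusted p = 0.014). The part of these in the histone differences was not tested. The comparison by number and this one use the same libraries, so their values for a gene are given side by side and not as separate evidence: HIST2H2BE was at -0.93 by number and 0.82 here, HIST1H3E at -0.88 and 0.99, HIST1H2AK at -1.15 and 1.16, HIST1H2BN at -0.70 and 0.78, and HIST1H1C at 0.56 and -0.32.

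The count with the block moved with single libraries. Leaving out 1 of the 6 libraries at a time left 0 to 17 histone genes called, and the share of all genes called moved as well. There were 0 without KO_S47A 2 (2.78% of all genes), 3 without KO 1 (7.22%), 5 without KO 2 (10.9%), 6 without KO_S47A 1 (7.83%), 13 without KO_S47A 3 (21.2%) and 17 without KO 3 (24.7%). Without KO 1 and KO_S404A 2 together, 7 were called with the block (12.5%).

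**Figure D5:**
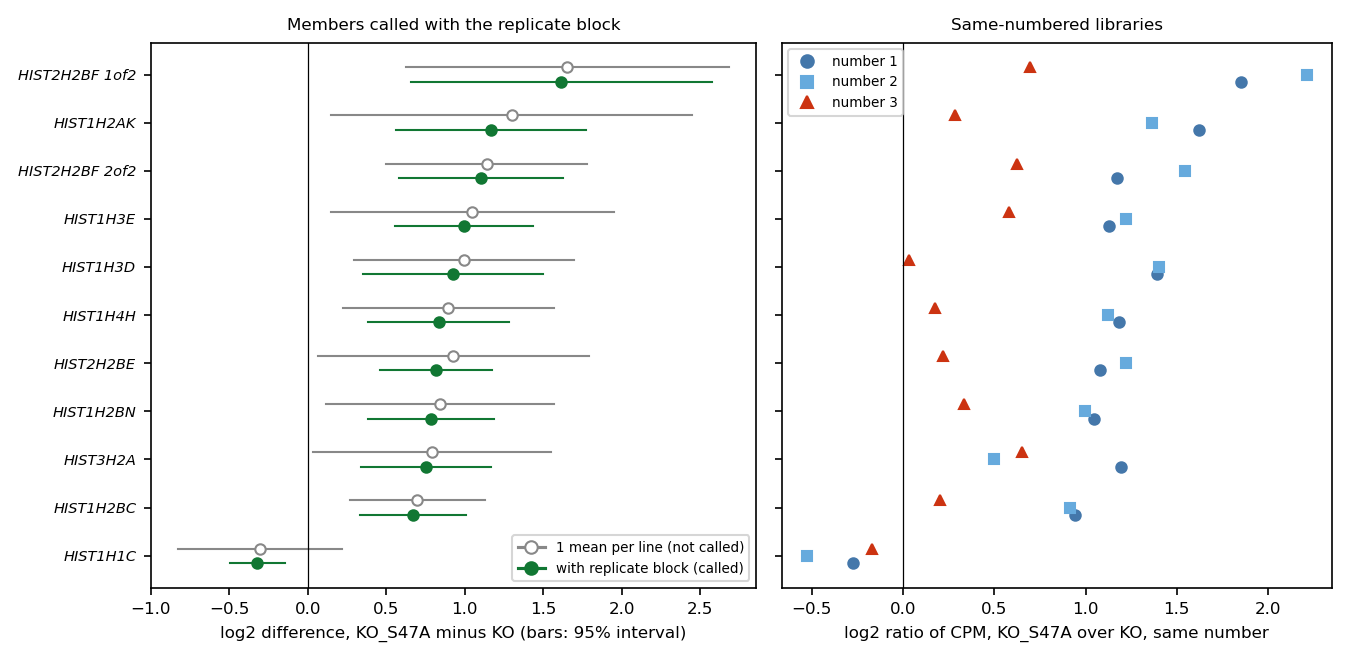
Left, log2 difference KO_S47A minus KO with 95% interval for the 11 histone genes called with the replicate block, in the fit with 1 mean per line (grey, open) and with the block (green, filled). Right, log2 ratio of CPM between the same-numbered libraries of the 2 lines; the red triangles of number 3 lie closest to 0 in all but HIST3H2A.

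The block also called 1 gene in each of 2 other contrasts. HIST2H2BE was lower in KO than in Scramble by 0.75 on the log2 scale, -0.75 (SE 0.17, adjusted p = 0.0116, against -0.82, SE 0.40 and adjusted p = 0.426 without the block), where 8.29% of all genes were called and 5.01% were lower. Its same-numbered ratios were 0.541, 0.468 and 0.790. HIST1H2BL was higher in KO_WT than in Scramble by 0.83 (SE 0.23, adjusted p = 0.0338, against 0.0901 without the block), where 10% of all genes were called and 4.58% were higher, and DESeq2 called it too. Its CPM was 2.38, 1.91 and 1.1 in Scramble and 2.83, 3.52 and 3.04 in KO_WT, without overlap. In KO_WT minus KO, KO_WT minus KO_S47A and KO_S404A minus KO_WT the block called 0 histone genes, beside 0.105%, 0.0211% and 0% of all genes.

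Of the replication-independent histone genes, H2AFY2, which encodes a macroH2A, was called between lines in the main fit, at 1.18 (SE 0.11, adjusted p = 1.99e-05) in KO minus Scramble and 1.17 (SE 0.11, adjusted p = 2.39e-05) in KO_WT minus Scramble. H2AFJ was lower in KO_WT than in Scramble, at -0.51 (SE 0.12, adjusted p = 0.026). In the same contrast the H3.3 chaperone genes HIRA and CABIN1 were lower, both at -0.54 (adjusted p = 0.0306 and 0.0353). BTG1, an antiproliferative gene of the cell cycle exit list, was at -1.47 (adjusted p = 0.00194) in KO minus Scramble and -1.33 (adjusted p = 0.00386) in KO_WT minus Scramble. No gene of the DNA replication or mitosis lists passed between lines in the fit with 1 mean per line. With the block, KO minus Scramble also called H1F0 (-0.45), H2AFJ (-0.39) and the cell cycle exit genes CCNG2 (-0.71) and TOB1 (-0.41) lower, and ZNF473 (0.37) of the histone mRNA factors, the histone chaperone gene NASP (0.41), LIG1 (0.51) of the DNA replication list and CDK1 (0.64) of the mitosis list higher. In KO_WT minus Scramble it also called H1F0 (-0.43), H2AFZ (-0.37), HJURP (-0.49), CDC45 (-0.48), MCM5 (-0.56) and TOB1 (-0.41) lower. In KO_S47A minus KO it called 4 of 11 replication-independent histone genes lower, and 11 of 19 histone chaperones.

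The libraries held 40846694 to 64345775 counts in genes, and 13.2% to 20.6% of reads were assigned to no gene. PNPLA2, the gene that was targeted, had 45.3 to 54.3 CPM in Scramble, 9.11 to 13.0 in KO, 207 to 241 in KO_WT, 110 to 165 in KO_S47A and 303 to 493 in KO_S404A. The 11 prostate luminal markers summed to 6078 to 8846 CPM and all were detected, while the 12 markers of stroma, endothelium and blood summed to 27.7 to 49.7 CPM, 7 of them under 1 CPM in every library. In the libraries numbered 3, 2 luminal markers were higher and 2 lower, and of the 5 other markers tested 2 were higher and 1 lower. Their part in the histone differences was not tested.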

How the data were processed

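RNA selected with oligo-dT was sequenced from 5 C4-2 lines with 3 libraries each. The authors deposited, per the file headers, a whole-number count and an FPKM value per gene entry of each library, the counts not normalized. CASAVA and STAR are named, without versions, in the submitters' processing notes; the build, the annotation and the strand setting are not stated in the sources used here. FPKM served only to recover the counted length of each entry. Entries of unassigned reads, 13.2% to 20.6% of a library, entered neither library sizes nor tests.

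In R 4.3.3, edgeR 4.0.16 (filterByExpr, TMM, quasi-likelihood test) tested 14246 genes with Benjamini-Hochberg adjustment over all of them, and a call is an adjusted p under 0.05. Line contrasts used 1 mean per line over all 15 libraries, and the number comparison used terms for line and number. SE is the absolute log2 difference divided by the square root of F. DESeq2 1.42.0 was an alternative. The scripts were tested on simulated data. Libraries of a line differed by a chi-square per degree of freedom of 8.34 or more, so none is a copy of another. Each was treated as 1 sample, but this value does not show that they are separate cultures. Libraries 1 and 2 differed by 10.3 in Scramble, 8.34 in KO_WT and 8.90 in KO_S47A. In these lines they differed from library 3 by 74.4 or more. In KO and KO_S404A libraries 1 and 2 differed by 41.9 and 156. Stem-loops were read from GENCODE v29 transcripts and promoters from RefSeq.

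Same-numbered libraries were taken as paired where their deviations from the line means correlated above 0.1 for each of the 3 numbers. This rule does not ask that a library correlate best with its own number, and 0 of those numbered 2 did. The lowest correlation was 0.127 in KO minus Scramble, 0.142 in KO_WT minus KO, 0.15 in KO_S47A minus KO, 0.271 in KO_WT minus KO_S47A, 0.192 in KO_S404A minus KO_WT and 0.232 in KO_WT minus Scramble. The labels do not say what a number stands for.

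The members and lists were chosen with earlier results of these data known. Named genes are the 12 members with the most counts, the highest of each class, the called members (up to 10 in each direction), those around the minimum of 50 counts, all replication-independent histone genes, up to 2 called genes per direction of each other list, and PNPLA2. Chosen after the data were seen were the tests of head-to-head pairs and their genes, the grouping by transcript, the interaction test, HIST1H1E, RMRP and the runs without KO 1 and KO_S404A 2.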

Additional observations from a re-analysis of the deposited data

Results flagged for a closer look

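For the histone genes named in the comparison by number, the spread within the libraries numbered 1 and 2 and within those numbered 3 was searched for a library lying far from its neighbours. Of 46 such groups 2 held one, where chance gives about 1 in 20. HIST1H3H, an H3 gene, had 13.8 CPM in KO_WT 1, above the other libraries numbered 1 and 2. HIST1H4C, an H4 gene, had 7.02 CPM in KO_WT 3, apart from the other libraries numbered 3.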

How the results depend on the processing

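The count of histone genes called by number was 16, where 45.3% of all genes were called. Over 27 alternatives it ranged from 11 without the line KO_S47A (35.4% of all genes) to 21 without the line KO (46.4%). It ran from 12 to 20 when 1 library was left out, where 35% to 47.4% of all genes were called. Calls lost were those of HIST1H4A in 18 alternatives, HIST1H2AL in 16, HIST1H2AJ in 12, HIST1H3A in 11 and HIST1H4H in 4. HIST1H2AG, at 0.04 and not called, turned to -0.0343 without the line KO, -0.0418 without the line KO_S404A, -0.0849 for number 3 minus number 1 and -0.0535 without KO 1 and KO_S404A 2, and ran from -0.0423 to 0.134 when 1 library was left out. Between lines the count of 0 held with each library left out in turn, under other scaling, without the filter on low counts, without KO 1 and KO_S404A 2 and, for contrasts of 2 lines, in a fit of the compared lines only. With the replicate number as a block it became 1 in KO minus Scramble, 11 in KO_S47A minus KO, 1 in KO_WT minus Scramble and 10 over the 5 lines (22.9% of all genes). The block changed no other count of called replication-dependent histone genes between lines. The libraries of KO_S404A and KO share only a number, with a lowest correlation of 0.0197, as do those of the 5 lines together, where 8 of 10 pairs of number 2 exceeded 0.1. All 5 libraries numbered 3 correlated best with their own number, as did 4 of those numbered 1 and 0 of those numbered 2. The blocked count in KO_S47A minus KO was 3, 5 and 17 without KO 1, 2 and 3, and 6, 0 and 13 without KO_S47A 1, 2 and 3, and 7 without KO 1 and KO_S404A 2. With the libraries numbered 1 and 2 only, 2 were called in KO minus Scramble (5.37% of all genes), 1 in KO_WT minus KO (0.3%), 17 in KO_S47A minus KO (21.6%), 1 in KO_S404A minus KO (2.81%) and 10 over the 5 lines (17.5%). DESeq2 called 1 in KO_WT minus Scramble and 1 over the 5 lines. The cause of these changes was not tested. The median summed level of 374.7 CPM was 311.97 when unassigned reads were counted in the total. At this depth the 95% interval of a histone gene had a median halfwidth of 0.48 by number and 0.95 in KO minus Scramble.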
